A study of Mus musculus with 199 samples.

Results

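The genes described here are 10 markers of neuroendocrine secretion in mouse small-cell lung cancer, taken by symbol from the 31581 genes of the series. They comprise the granins and granin-like genes Chga, Chgb, Scg2, Scg3, Scg5 and Resp18, the peptide precursors Calca and Pomc, the amine-synthesis enzyme Ddc, and Uchl1, a neuronal deubiquitinating enzyme used as a neuroendocrine marker. The series holds 199 libraries. Most hold about 10 cells cut by laser from a frozen section: 28 from spheroids of the KP1 line, 33 from KP1 colonies in livers of nude mice, 31 from KP1 colonies in livers of F1 mice and 24 from spheroids of the RPC line. Pool-and-split controls, in which pooled cells were divided again into 10-cell equivalents, number 20 for KP1 spheroids, 35 for nude liver and 24 for F1 liver. The labels give KP1 the genotype Rb1-/-Trp53-/- and describe the hosts as immunocompromised (nude) or immunocompetent (F1). RPC is labelled a pre-small cell lung cancer line with the genotype Rb1-/-Trp53-/-p130-/+Crebbp-/-, so KP1 and RPC share the loss of Rb1 and Trp53. One bulk library each comes from KP1 and from KP2 (also Ptch1+/lacz), KP3 (also Axin2+/lacz) and KP5 (also BAT-GAL). KP1 and RPC are 1 line each, and the labels do not tie libraries to animals or cultures, so p-values measure the spread between libraries only.

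Neuroendocrine cells store peptides and amines in dense-core granules. Granins are acidic proteins that aggregate in the trans-Golgi network and help load those granules. Prohormone convertases cut the precursors into active peptides, and aromatic amino acid decarboxylase, the product of Ddc, makes serotonin and dopamine from their precursors. Pulmonary neuroendocrine cells and small-cell lung cancers are known for this programme, which includes calcitonin gene-related peptide, 1 of the products of Calca.

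Promoters of 4 of the 5 members called between the RPC and KP1 lines are shown. Cyclic AMP response elements are a textbook feature of granin and Calca promoters. Resp18, also called, held neither form of the element described below and is not printed. The sequences are RefSeq windows on GRCm38.p6, from 250 bases before to 50 after the annotated start. The palindrome TGACGTCA and its shorter form TGACG were searched on both strands; each palindrome also holds the shorter form on either strand. Capitals mark the palindrome in Scg2 and Chgb and the shorter form in Chga and Calca.
Scg2 promoter, chr1:79439977-79440276, minus strand: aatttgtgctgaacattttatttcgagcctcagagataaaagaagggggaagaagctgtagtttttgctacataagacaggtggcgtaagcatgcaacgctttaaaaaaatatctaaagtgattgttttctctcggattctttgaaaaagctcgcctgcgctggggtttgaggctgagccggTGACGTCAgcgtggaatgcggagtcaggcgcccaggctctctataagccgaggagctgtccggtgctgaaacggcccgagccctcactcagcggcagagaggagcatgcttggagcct
Chgb promoter, chr2:132781392-132781691, plus strand: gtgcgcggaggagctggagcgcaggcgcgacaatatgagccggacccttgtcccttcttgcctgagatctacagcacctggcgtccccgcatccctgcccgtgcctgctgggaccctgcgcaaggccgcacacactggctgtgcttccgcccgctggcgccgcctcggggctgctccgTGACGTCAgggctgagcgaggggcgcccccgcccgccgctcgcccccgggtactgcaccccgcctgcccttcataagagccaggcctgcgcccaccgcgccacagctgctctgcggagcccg
Chga promoter, chr12:102554691-102554990, plus strand: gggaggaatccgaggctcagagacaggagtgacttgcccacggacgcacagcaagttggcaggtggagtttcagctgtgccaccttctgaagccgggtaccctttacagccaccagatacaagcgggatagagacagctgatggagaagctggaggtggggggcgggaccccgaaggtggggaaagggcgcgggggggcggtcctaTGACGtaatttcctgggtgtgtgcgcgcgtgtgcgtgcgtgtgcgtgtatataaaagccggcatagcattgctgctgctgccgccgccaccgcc
Calca promoter, chr7:114636308-114636607, minus strand: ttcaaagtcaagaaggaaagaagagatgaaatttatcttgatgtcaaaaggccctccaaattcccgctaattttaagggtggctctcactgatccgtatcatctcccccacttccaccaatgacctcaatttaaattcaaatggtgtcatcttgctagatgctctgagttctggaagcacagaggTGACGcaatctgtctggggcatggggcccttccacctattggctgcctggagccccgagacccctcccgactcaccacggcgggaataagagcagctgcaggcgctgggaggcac
The palindrome started 68 bases before the annotated start in Scg2 and 72 bases before it in Chgb, and it lay in 2 of the 11 windows of the 10 members (Ddc has 2 windows), against 1.79% of 32851 windows in the table. The shorter form lay in 6 of 11 windows, against 20.8% of all. Resp18, Uchl1, Ddc and Pomc held none of these letters in their windows. These are matches of letters only. The genes themselves lie at chr1:79434669-79440120 (Scg2), chr2:132781278-132795079 (Chgb), chr12:102554969-102565028 (Chga) and chr7:114631478-114636357 (Calca) on GRCm38.

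Gene counts per library of 10 cells or pool, without the ERCC spike-in transcripts, ran from 718208 to 7557773. Levels are given as CPM, a gene's count scaled to the library's total gene counts. ERCC transcripts took a median of 0.00465% of counts in KP1 spheroid captures, 0.969% in nude liver, 2.16% in F1 liver, 5.94% in nude liver pools and 13.2% in F1 liver pools. Hepatocyte markers (11 genes) summed to 0 to 83.6 CPM in KP1 spheroid captures, 33.4 to 4565 CPM in nude liver captures and 0 to 2126 CPM in F1 liver captures, and erythrocyte markers (4 genes) to 0 to 31.3, 0.593 to 3743 and 0 to 32690 CPM. The 6 neuroendocrine tumour markers summed to a median of 147 CPM in KP1 spheroid, 107 in nude liver, 99.5 in F1 liver and 172 CPM in RPC captures, with Cdh1 at 0 in every KP1 and RPC spheroid capture. KP1 spheroid libraries fell into 9 captures and 6 pools with at least 0.1% ERCC counts and 19 captures and 14 pools with less, and F1 libraries into 26 captures and 19 pools with high counts of the pseudogene Rpl19-ps11 and 5 captures and 5 pools with low counts. These splits come from the data, not from the labels. Genes on the opposite strand overlap Resp18 (Gm28902), Uchl1 (Uchl1os), Scg3 (Gm37871) and Ddc (1700042O10Rik), and whether counting used strand is not given in the sources used here. Because a capture mixes cells, fewer tumour cells and less RNA per tumour cell cannot be told apart.

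In bulk KP1 spheroids, where TPM values (counts scaled by summed exon length and library total) allow levels to be compared between genes, Chga was the highest member at 1703 TPM, rank 50 of 31345 genes. Uchl1 followed at 823, Calca at 486 and Ddc at 443 TPM. Scg3 (219), Chgb (203), Resp18 (95.6) and Scg5 (59.4 TPM) lay lower. Scg2 had 18.4 and Pomc 3.63 TPM. Each bulk value comes from 1 library, so the order between neighbours has no replicate check.

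The 4 lines differed most in Scg2, a granin that is the precursor of secretoneurin, with 104 TPM in KP3, 18.4 in KP1, 10.5 in KP2 and 2.95 in KP5. Chga had 1703 TPM in KP1 and 1685 in KP3 but 416 in KP2 and 539 in KP5. Calca was highest in KP1 at 486 TPM and lowest in KP2 at 75.3 TPM, with 215 in KP3 and 127 in KP5. Uchl1 (692 to 1116 TPM) and Ddc (432 to 568 TPM) varied least among the 4 lines. Scg5, which encodes 7B2, the chaperone of prohormone convertase 2, had the reverse order of Calca at its ends, 59.4 TPM in KP1 and 233 TPM in KP2.

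**Figure D1:**
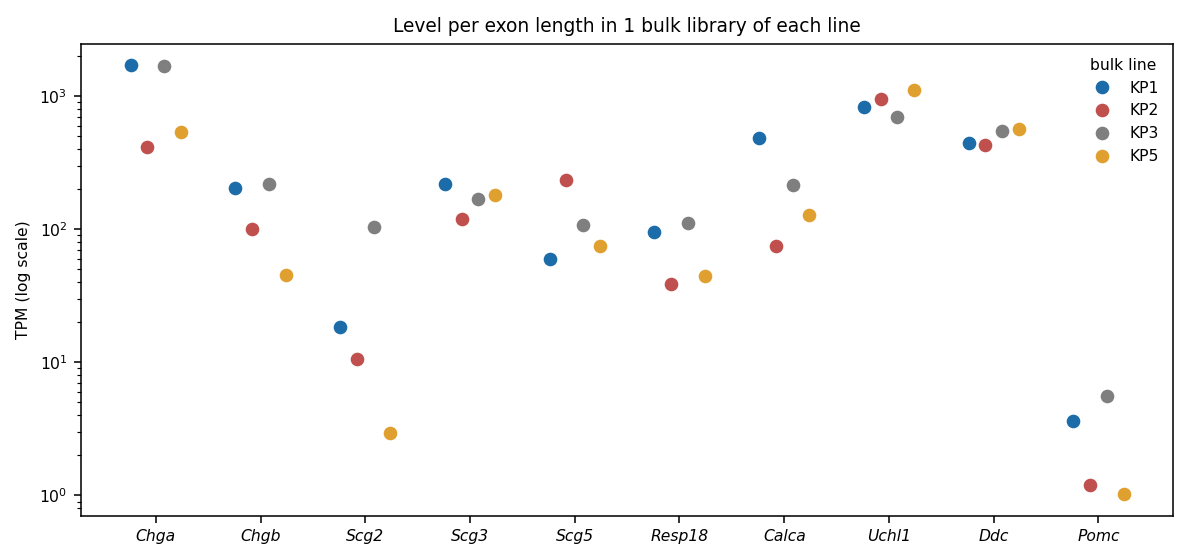
TPM (log axis) of the 10 genes in the bulk spheroid libraries of KP1, KP2, KP3 and KP5; each point is 1 library. Scg2 spans 2.95 to 104 TPM, while Ddc stays between 432 and 568 TPM.

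Calca, which encodes calcitonin and calcitonin gene-related peptide by alternative splicing (the gene counts do not separate them), had the lowest fitted values of the members in liver. All 28 KP1 spheroid captures had counts, with a lowest level of 11.5, a median of 104 and a highest of 329 CPM. The lowest was capture 23, also the lowest for Chga, Chgb and Ddc, and the next had 27.3 CPM of Calca. Nude liver captures ran from 0 through a median of 4.48 to 233 CPM, and 18 of 33 lay below every spheroid capture. F1 liver captures ran from 0 through a median of 0.218 to 48.6 CPM, and 26 of 31 lay below every spheroid capture. The higher liver captures overlapped the spheroid range, and the 3 highest nude captures carried 54.3% of that group's summed CPM.

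**Figure D2:**
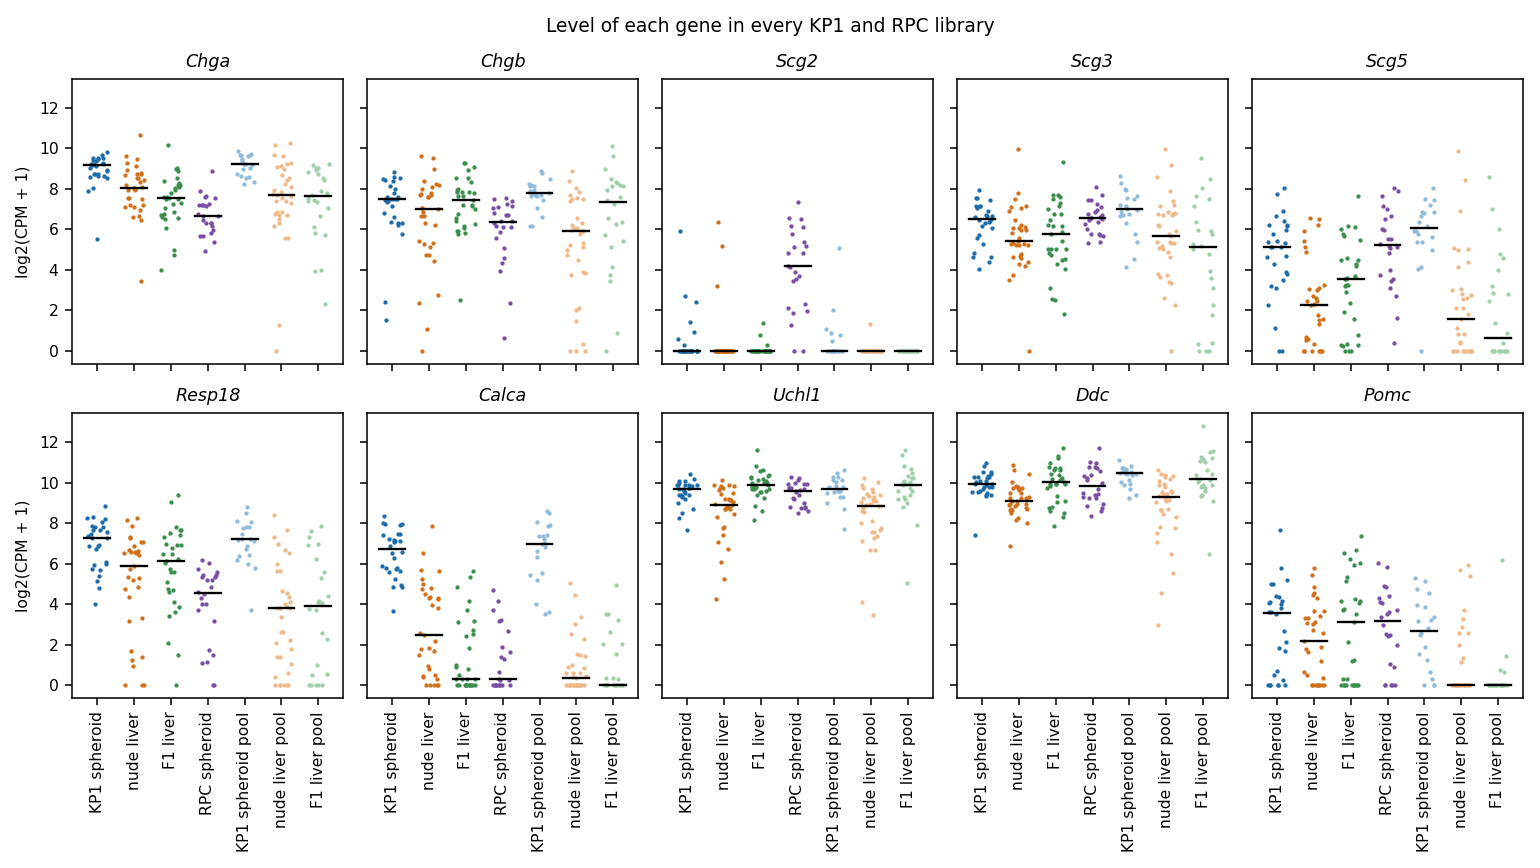
Level of each gene, log2(CPM + 1), in every KP1 and RPC capture and pool; points are libraries and bars are group medians. Calca medians drop from 104 CPM in KP1 spheroid captures to 4.48, 0.218 and 0.208 CPM in nude liver, F1 liver and RPC captures, and Scg2 is above 10 CPM in 16 of 24 RPC captures.

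Against KP1 spheroid captures, Calca differed by -2.63 ± 0.55 on the log2 scale in nude liver captures (SE, 33 and 28 libraries; edgeR quasi-likelihood adjusted p = 8.06e-05) and by -4.22 ± 0.67 in F1 liver captures (31 and 28 libraries; adjusted p = 4.84e-06). The 2 comparisons share the spheroid libraries. Libraries of a pool group are splits of pooled cells, so SEs and p-values between pool groups, here and in what follows, cover the spread between splits and not between colonies or mice. In pools Calca differed by -5.60 ± 0.74 in nude liver (adjusted p = 1.01e-08) and by -5.02 ± 0.88 in F1 liver (adjusted p = 3.91e-05), the latter not called with the number of detected genes as a covariate (-3.23, adjusted p = 0.0797). With the hepatocyte marker score as a covariate, the value in nude liver captures was -3.07 and no longer called (adjusted p = 0.164). That score itself largely follows the group. Between the 2 liver hosts Calca was not called in captures (F1 minus nude -1.57 ± 0.75, adjusted p = 0.133), though limma-voom (-1.99) and libraries with at most 5% ERCC counts (-2.47) called it lower in F1. In the pools it did not pass the low-count filter.

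Spheroid pools themselves split by Calca. The 6 pools with at least 0.1% ERCC counts ran from 10.5 to 45.9 CPM, and the 14 others from 77.9 to 392 CPM, with no overlap. The same split of spheroid captures gave overlapping ranges, 29.4 to 256 CPM in 9 and 11.5 to 329 CPM in 19. Against the 6 pools alone Calca was -3.71 in nude liver pools (adjusted p = 0.0185) and -3.05 in F1 liver pools, no longer called (edgeR adjusted p = 0.334), and against the 14 others it was -6.03 and -5.44.

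Chga, the most abundant granin and a serum marker of neuroendocrine tumours, was also lower in liver captures. It ran from 44.5 through a median of 570 to 908 CPM in KP1 spheroid captures. In nude liver captures the median was 265 CPM (9.75 to 1628), and in F1 liver captures 187 CPM (15.1 to 1162). Of the liver captures, 29 of 33 and 30 of 31 lay below the spheroid median, although the ranges overlapped. Chga fell by 0.78 ± 0.25 in nude liver (adjusted p = 0.00997) and by 0.89 ± 0.26 in F1 liver (adjusted p = 0.0157). The F1 call was lost under 4 of 13 alternatives. These were the hepatocyte score as a covariate (-0.70), either subset of spheroid captures by ERCC share alone and the 5 F1 captures with low Rpl19-ps11. In the pools the medians were 607 CPM in spheroid, 203 in nude liver and 199 CPM in F1 liver, and edgeR called neither difference (-0.70 ± 0.37, adjusted p = 0.161, and -0.57 ± 0.38, adjusted p = 0.343). Chga was called lower in nude liver pools by RLE scaling (-0.96), DESeq2 (-0.96), limma-voom (-1.30) and the replicate block (-0.81), and in F1 liver pools by limma-voom (-1.22) and with the 5 pools of low Rpl19-ps11 (-1.50).

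In nude liver captures 6 of the 9 members tested were called against KP1 spheroids, all of them lower, where 34.1% of 7834 tested genes were called, 17.7% higher and 16.3% lower. Beside Calca and Chga, Scg5 fell by 1.98 ± 0.63 (adjusted p = 0.0107), Resp18, a granule protein of endocrine cells, by 1.18 ± 0.44 (0.0298), Uchl1 by 0.85 ± 0.22 (0.00151) and Ddc by 0.71 ± 0.20 (0.00327). Chgb, Scg3 and Pomc were tested and not called, and Scg2 had too few counts. Scg3 (-0.15) was called lower by DESeq2 (-0.75), limma-voom (-0.88) and the replicate block (-1.01). The median over the 9 tested members was -0.85, beside -0.04 over all tested genes. When the hepatocyte score was added as a covariate, 0 of the 9 members were called by edgeR (Calca alone had an unadjusted p under 0.05), while 1003 of all 7834 genes tested were. In that fit Chga was -0.81 ± 0.50, Scg5 -2.33 ± 1.23, Resp18 -1.65 ± 0.96, Calca -3.07 ± 1.45 and Uchl1 -0.67 ± 0.43, each with a larger SE than without the covariate, while Ddc was -0.06 ± 0.37. Hepatocyte markers summed to a median of 1.11 CPM in spheroid and 832 CPM in nude liver captures. The score thus largely follows the group, and this fit cannot separate score from group. Within nude liver captures the score had a Spearman's rho of 0.029 with Chga, 0.064 with Scg5 and 0.316 with Resp18. It had 0.125 with Calca, -0.093 with Uchl1 and -0.167 with Ddc. Against the spheroid captures with under 0.1% ERCC counts alone Chga lost its call, as did Scg5 and Resp18 against the others. Other marker sums also moved with the host. From KP1 spheroid to nude liver captures the median went from 0 to 551 CPM for erythrocyte, from 55.3 to 196 CPM for stellate and fibroblast and from 0.234 to 14.7 CPM for endothelial markers (4 genes each), and their part in these values was not tested.

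In nude liver pools 3 of 9 tested members were called, Calca, Resp18 (-1.79 ± 0.64, adjusted p = 0.0293) and Ddc (-0.79 ± 0.29, adjusted p = 0.0363), where 25.6% of 8010 tested genes were called, 16.5% higher and 9.13% lower. Resp18 ran from 12.0 through a median of 145 to 441 CPM in spheroid pools and from 0 through 12.7 to 339 CPM in nude liver pools. Of the 35 nude pools, 17 lay below every spheroid pool for Resp18 and 16 for Ddc. The Resp18 and Ddc calls were each lost under 5 of 11 alternatives, while 6 of 9 members, and 995 of 8010 genes, were called lower by RLE scaling of the same counts (median over all genes -0.06, against 0.16 with the main scaling).

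In F1 liver the members split. Of 9 tested in captures, Calca and Chga were lower and Uchl1 was higher than in KP1 spheroids, where 12.6% of 7309 tested genes were called, 7.73% higher and 4.91% lower. Uchl1 ran from 204 through a median of 829 to 1376 CPM in spheroid captures and from 286 through 942 to 3097 CPM in F1 captures. The ranges overlapped, with 4 of 31 F1 captures above every spheroid capture, and the fitted difference was 0.70 ± 0.18 (adjusted p = 0.00536) beside a median of 0.22 over all tested genes. That call was lost with the number of detected genes as a covariate, against the 9 spheroid captures with at least 0.1% ERCC counts and with the 5 F1 captures of low Rpl19-ps11. In the pools Calca was lower and Uchl1 (0.88 ± 0.30, adjusted p = 0.0472) and Ddc (1.05 ± 0.29, adjusted p = 0.0118) were higher, 3 of 8 tested, where 11.6% of 7249 tested genes were called, 8.94% higher and 2.65% lower. The median over all genes was 0.46 there. For Ddc 9 of 24 F1 pools lay above the spheroid pool median and 15 below, and for Uchl1 14 above and 10 below. Mean Ddc was 1644 CPM in F1 pools and 1327 CPM in spheroid pools. Without the highest F1 pool, at 7108 CPM, the F1 mean was 1407 CPM. Neuroendocrine tumour markers summed to a median of 229 CPM in spheroid, 84.1 in nude liver and 40.0 CPM in F1 liver pools. Hepatocyte markers had medians of 0.561, 1009 and 161 CPM and erythrocyte markers of 0, 1259 and 334 CPM in the same order, and the part of these in the pool differences was not tested. The Uchl1 call was lost under 9 of 12 alternatives and the Ddc call under 6 of 12; limma-voom, the replicate block and 3 others lost both. Under limma-voom, where the median over all genes was -1.45, 0 of 8 members were higher and 5 lower, as were 393 and 2946 of 7249 genes.

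The direct comparison of the hosts gave its clearest values for Ddc and Uchl1. Ddc ran from 116 through a median of 547 to 1891 CPM in nude liver captures and from 231 through 1038 to 3311 CPM in F1 liver captures. Of the 31 F1 captures, 23 lay above the nude median for Ddc and 28 for Uchl1, and 9 lay above every nude capture for Uchl1. Uchl1 was higher in F1 by 1.57 ± 0.23 (adjusted p = 2.85e-07) and Ddc by 1.23 ± 0.23 (adjusted p = 4.3e-05). Both kept their call under each alternative run for captures, including the 5 F1 captures with low Rpl19-ps11 alone. The pools gave 1.69 ± 0.31 for Uchl1 (adjusted p = 0.000107) and 1.94 ± 0.33 for Ddc (adjusted p = 2.91e-05), but with the 5 F1 pools of low Rpl19-ps11 alone neither was called. Median hepatocyte marker sums were 832 CPM in nude and 187 CPM in F1 liver captures. Erythrocyte markers had 551 and 1622, endothelial 14.7 and 1.59, and stellate and fibroblast 196 and 95.5 CPM. The part of these last markers in the host differences was not tested.

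In all, 3 of 9 members tested were called between F1 and nude liver captures, all higher in F1, where 19.2% of 7064 tested genes were called, 11.2% higher and 7.98% lower. The third was Pomc, the precursor of corticotropin, which ran from 0 to 54.7 CPM in nude liver and from 0 to 164 CPM in F1 liver and differed by 2.27 ± 0.77 (adjusted p = 0.0285). For Pomc 16 of 31 F1 captures lay above the nude median and 15 below, and 6 lay above every nude capture. The 3 highest F1 captures carried 47.9% of that group's summed CPM. With the 5 F1 captures of low Rpl19-ps11 alone Pomc was -0.77, and 5 other alternatives also lost its call. In the pools the third of 7 tested was Chgb (2.00 ± 0.60, adjusted p = 0.0193), where 12% of 6010 tested genes were called, 8.2% higher and 3.79% lower. That call was lost under 4 of 10 alternatives. Chgb had a median of 58.8 CPM in nude liver pools and 163 CPM in F1 liver pools, with 3 of 24 F1 pools above every nude pool.

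**Figure D3:**
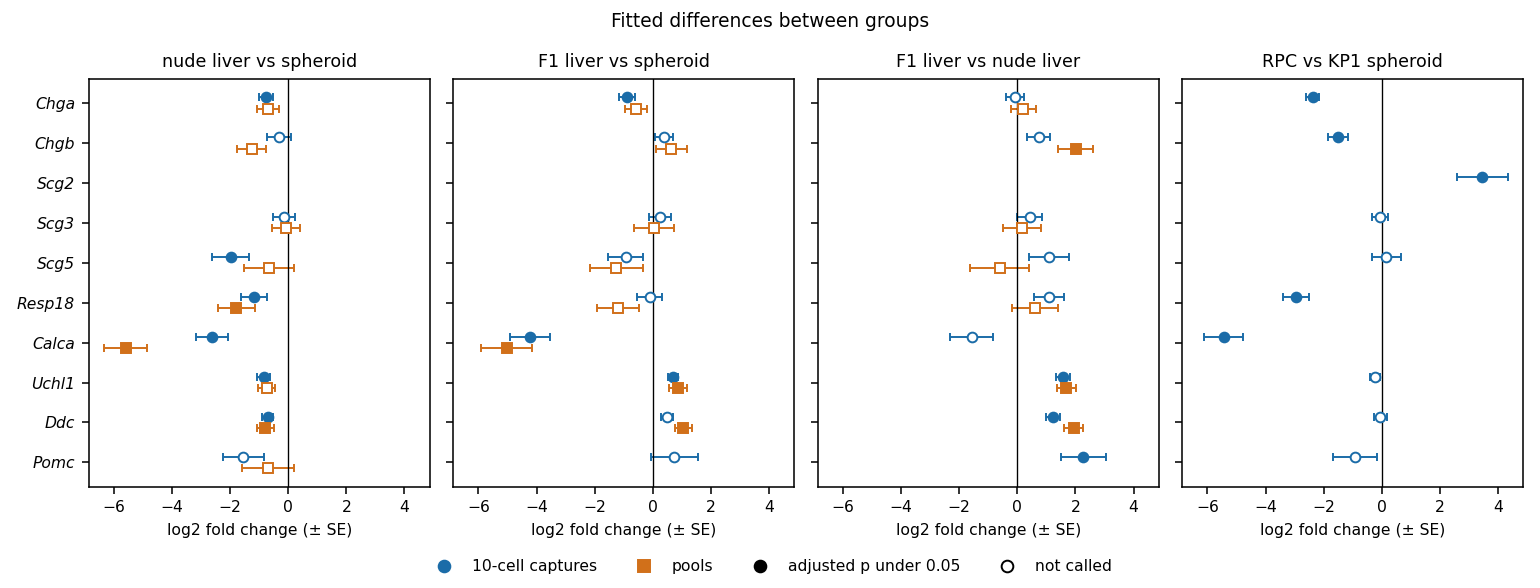
Fitted log2 fold changes (± SE) of each gene in the 4 comparisons of captures and the 3 of pools; filled symbols passed an adjusted p of 0.05 by edgeR, and genes without a symbol failed the filter on low counts. Calca lies between -2.63 and -5.60 in the liver comparisons with spheroids, and Uchl1 and Ddc are higher in F1 than in nude liver by 1.23 to 1.94.

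The RPC line had lower levels of Chga, Chgb, Resp18 and Calca than KP1 and a higher level of Scg2. Of 10 members tested 5 were called, 4 lower and 1 higher, where 21.9% of 8600 tested genes were called, 10.3% higher and 11.6% lower. Scg2 was detected in 22 of 24 RPC captures, with a median of 17.0 and a highest level of 163 CPM. It was detected in 7 of 28 KP1 spheroid captures, 1 of them at 60.1 CPM and the next at 5.58 CPM. Scg2 was higher in RPC by 3.46 ± 0.87 (adjusted p = 0.00218), and the KP1 mean of 2.62 CPM became 0.489 CPM without the highest capture. In liver Scg2 was detected in 3 of 33 nude captures (82.1, 34.7 and 8.30 CPM) and in 3 of 31 F1 captures (at most 1.56 CPM). It was detected in 0 of 24 F1 pools, where 3 counts over the group would be 0.0345 CPM.

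The lower members in RPC were Calca (-5.44 ± 0.67, edgeR adjusted p = 1.11e-09), Resp18 (-2.95 ± 0.44, 3.16e-07), Chga (-2.38 ± 0.23, 1.23e-13) and Chgb (-1.51 ± 0.35, 0.000947). Calca ran from 0 through a median of 0.208 to 24.5 CPM in RPC, and 21 of 24 RPC captures lay below every KP1 spheroid capture. Chga ran from 29.5 through 101 to 468 CPM, and all 24 RPC captures lay below the KP1 median. Chgb ran from 0.574 through 81.3 to 184 CPM, against 1.88 through 177 to 461 CPM in KP1. All 5 calls held under each alternative run. Scg2 and Chgb, whose promoter windows above both hold the palindrome, differed in opposite directions.

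Scg3, Scg5, Uchl1, Ddc and Pomc were not called between RPC and KP1. Scg3, which encodes a granin that binds chromogranin A to granule membranes, had a median of 94.3 CPM in RPC and 88.7 CPM in KP1 spheroids, and none of the 7 edgeR comparisons called it. Ddc had medians of 910 and 989 CPM, and Uchl1 of 776 and 829 CPM. Hepatocyte markers summed to at most 57.5 CPM in RPC captures. Stellate and fibroblast markers (4 genes) summed to 0.471 to 188 CPM (median 55.3) in KP1 spheroid captures and 0 to 6.85 CPM (median 0) in RPC captures, and their part in the differences was not tested.

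Other genes of the secretory pathway are given by list, beside the share of all tested genes called in the same comparison. Of 18 genes of granule biogenesis and prohormone processing, 10 were tested in nude liver captures, where 2 were lower and 1 higher (34.1% of all tested genes were called). Pcsk2, prohormone convertase 2, fell by 1.33 ± 0.52 (adjusted p = 0.0385) and Ica1, an islet granule autoantigen, by 2.27 ± 0.71 (0.00966). Pam, which amidates peptide ends, rose by 1.76 ± 0.56 (0.00982). In F1 liver captures 1 of 11 was called, against 12.6% of all genes: Pcsk1n (proSAAS, 1.95 ± 0.60, adjusted p = 0.022). Between hosts 1 of 9 was called, against 19.2% of all genes: Pam (-2.05 ± 0.56 in F1, adjusted p = 0.00556). In RPC 1 of 11 was called, against 21.9% of all genes, Pcsk1, prohormone convertase 1, which fell by 5.15 ± 0.70 (adjusted p = 2.22e-08) from a median of 94.7 CPM in KP1 to 0.177 CPM.

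In the pools, Pcsk2 differed by -1.94 ± 0.69 in nude liver (adjusted p = 0.0309) and by -3.22 ± 0.89 in F1 liver (0.0106). Of the 11 tested in nude liver pools 2 were lower and 2 higher, where 9.13% and 16.5% of all genes were. Of the 10 in F1 liver pools 2 were lower, where 2.65% of all genes were, Pcsk2 and Pcsk1 (-2.84 ± 0.94, adjusted p = 0.0392). Between F1 and nude liver pools 0 of 9 were called by edgeR, and 0 had an unadjusted p under 0.05. Cpe, which trims the cut peptides, was measured in every capture, with medians of 289 to 390 CPM over the 4 capture groups.

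Of 17 genes of amine synthesis and breakdown, 7 were tested in nude liver captures, and 2 were higher and 1 lower, where 17.7% and 16.3% of all genes were. Spr rose by 3.95 ± 0.80 (edgeR adjusted p = 5.61e-05), while Pts fell by 2.06 ± 0.78 (0.0323). Both make tetrahydrobiopterin, the cofactor of the hydroxylases that act before Ddc. In F1 liver captures 1 of 4 was called, against 12.6% of all genes, Qdpr, which recycles that cofactor (1.19 ± 0.36, adjusted p = 0.0193). In RPC 2 of 7 were called, against 21.9% of all genes, Maoa (2.11 ± 0.68, adjusted p = 0.0181) and Spr (2.26 ± 0.75, adjusted p = 0.0215), both higher. Of 28 other neuropeptide genes, 0 passed the low-count filter in the KP1 comparisons and 1 did in RPC, where it was not called.

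Of 12 regulators of neuroendocrine genes, 7 were tested in nude liver captures and 5 were lower, none higher, where 16.3% and 17.7% of all genes were. Among them were Insm1 (-1.94 ± 0.50, edgeR adjusted p = 0.00152), Foxa2 (-1.56 ± 0.48, 0.00796) and Neurod1 (-2.10 ± 0.70, 0.0141). In F1 liver captures 2 of 6 were lower, where 4.91% of all genes were, among them Insm1 (-1.67 ± 0.49, adjusted p = 0.0147). In RPC 4 of 8 were lower and 2 higher, where 11.6% and 10.3% of all genes were. Foxa2 fell by 3.11 ± 0.44 (7.91e-08) and Creb1, a factor that binds the palindrome shown above, by 1.99 ± 0.55 (0.00524). Neurod1 was higher in RPC by 2.32 ± 0.61 (0.00313) and Rcor2 by 2.88 ± 0.69 (0.00112). Of 13 receptors of the peptides 1 was tested in the liver comparisons, Ramp3, a partner of the calcitonin receptor family, which was higher in F1 liver captures by 3.34 ± 0.79 against spheroids (adjusted p = 0.00222), where 7.73% of all genes were, and by 1.63 ± 0.58 against nude liver (adjusted p = 0.0379), where 11.2% were. In nude liver captures against spheroids it was 1.73 ± 0.77 and not called (adjusted p = 0.0741), nor was it called between any pools.

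Captures and pools of the same material were compared for spread, since pools carry the spread of the method. Liver pools had larger ERCC shares than captures, as given above, and fewer genes detected. The medians were 8406 genes in pools and 9791 in captures of nude liver, and 8190 and 9065 of F1 liver. The measure was the distance of log2(CPM + 1) from the group median, tested with limma over all genes whose mean reached 5 CPM. In spheroids 0 of 9 members were called, where 0% of 8600 genes were called (510 had an unadjusted p under 0.05, none of them a member). In nude liver 1 of 9 was called, Calca, whose captures deviated by 1.12 ± 0.28 more than pools (adjusted p = 0.0354), where 0.766% of 9397 genes were called. Captures deviated more than pools for 2 of 9 members, and the median difference over all genes was -0.08. Calca was at 0 in 17 of 35 nude pools and in 5 of 33 captures, with means of 2.50 ± 6.38 and 20.9 ± 43.0 CPM (SD; 1.65 and 14.3 CPM without the highest library of each), so the groups also differed in level. The call was lost with log2(CPM + 10) and with counts thinned to 1 depth.

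In F1 liver 1 of 8 members was called for spread, Pomc (1.97 ± 0.34, adjusted p = 0.00121), where 1.48% of 8760 genes were called. Captures deviated more than pools for 1 of 8 members, and the median difference over all genes was -0.16. Scg3 (-1.03 ± 0.39) and Chgb (-0.93 ± 0.39) deviated less in captures. With Pomc they made 3 members with an unadjusted limma p under 0.05, where 1558 of 8760 genes had such a p. Pomc was at 0 in 20 of 24 F1 pools, and 3 pools carried 99.2% of the summed CPM. It was detected in 21 of 31 captures, with a median of 7.56 and a highest level of 164 CPM. Its captures and pools therefore also differed in level.

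Covariation between captures was measured against Chga, the granin with the highest mean over the 4 capture groups (310 CPM). No member was called by limma in any group. In spheroids the slopes of 2 of 8 members had an unadjusted p under 0.05, Chgb and Ddc, as did 1386 of 8255 genes. Of the 8255 genes, 1.54% were called. With levels replaced by ranks 0 of 8 members had such a p, where 572 of 8255 genes did. Spheroid capture 23 was the lowest for Chga (44.5 CPM), Chgb (1.88 CPM) and Ddc (172 CPM). Chga and Ddc had a Pearson correlation of 0.575 and a Spearman's rho of 0.047. In nude liver 3 of 8 members had an unadjusted p under 0.05, Calca, Uchl1 and Scg5, as did 1211 of 9176 genes. Of the 9176 genes, 0% were called. With ranks 2 of 8 members had such a p, where 758 of 9176 genes did. Nude liver capture 30 was the lowest for Chga (9.75 CPM) and Uchl1 (18.1 CPM) and was at 0 for Calca and Scg5. In F1 liver 1 of 8 members had an unadjusted p under 0.05, Ddc, as did 540 of 8399 genes, of which 0% were called. In RPC 0 of 8 members did, where 1193 of 8876 genes did and 0.0225% were called. The slopes on Chga did not pass a test of difference between captures and pools for any member, where 0% of 8599 genes were called in spheroids (545 at an unadjusted p under 0.05), 0.138% of 9396 in nude liver (517 at an unadjusted p under 0.05, Calca among them) and 0% of 8759 in F1 liver (533 at an unadjusted p under 0.05).

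Pairs of members with a mean of at least 5 CPM each were described by Spearman's rho over the captures of a group, which share each library's depth. In 28 KP1 spheroid captures the median over 36 pairs was 0.093, beside 0.089 over all gene pairs. In 33 nude liver captures it was 0.207, beside 0.085, with 28 of 36 pairs above 0, where 64.2% of all gene pairs were. In 31 F1 liver captures it was -0.007, beside 0.074, with 18 of 36 pairs above 0, where 64.8% of all gene pairs were. In 24 RPC captures it was 0.080, beside 0.140. The members' median was above that of all pairs by most in nude liver; the difference was not tested.

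The strongest pairs differed between groups. Chga and Calca reached 0.598 in nude liver captures, and the same pair had 0.116 in KP1 spheroid, -0.074 in F1 liver and 0.109 in RPC captures. Chga and Ddc reached 0.587 in F1 liver captures and 0.199 in nude liver captures. In RPC captures Chga and Scg3 reached 0.490, and Chgb and Scg2 0.461. The 95th percentile over all gene pairs was 0.427 in nude liver, 0.378 in F1 liver and 0.496 in RPC captures, so both RPC pairs lay below it. Library measures also varied with members: in nude liver captures Uchl1 had a rho of 0.718 with gene counts and -0.506 with the ERCC share, and Scg5 of 0.572 and -0.516. In spheroid pools Calca had a rho of -0.818 with the ERCC share. The part of these measures in the pairs was not tested.

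**Figure D4:**
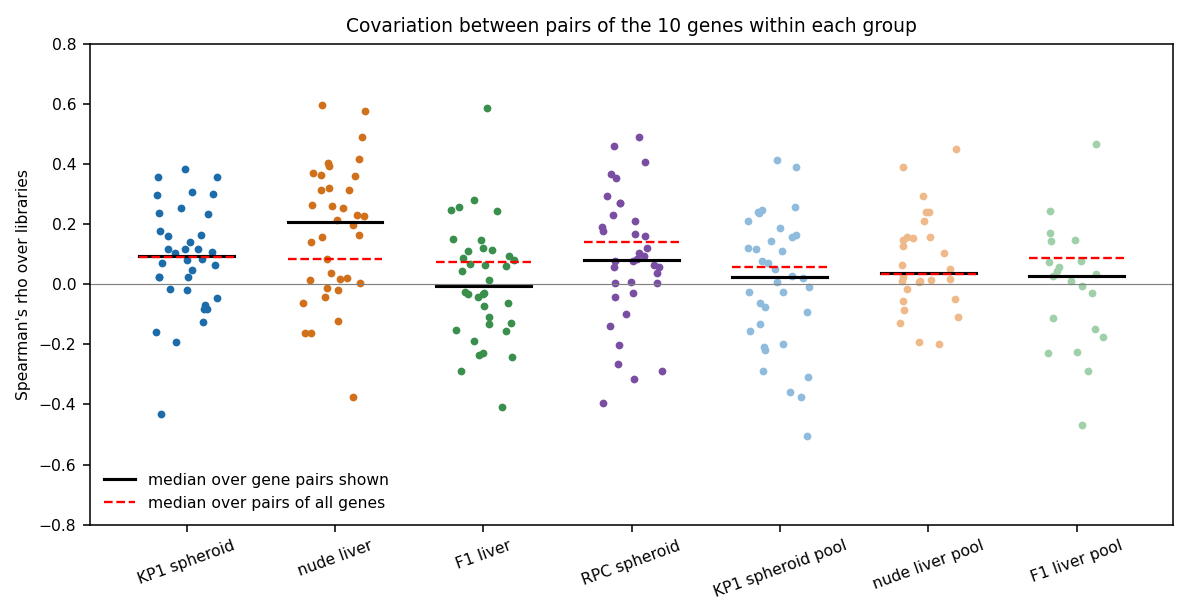
Spearman's rho between pairs of the 10 genes over the libraries of each group; points are pairs with a mean of at least 5 CPM for both genes, black bars their median and red dashes the median over pairs of all genes. The highest points are Chga with Calca in nude liver (0.598) and Chga with Ddc in F1 liver (0.587).

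Over all 116 captures, centred within group, the 5 genes most like Chga among 9263 were Csnk1g2 (rho 0.504), Epc1 (0.452), Yy1 (0.424), Erbin (0.416) and Sumo3 (0.408). The median over genes was 0.101 and the 95th percentile 0.259. Ddc was the closest member at 0.270, rank 359, with 0.587 in F1 liver, 0.199 in nude liver, 0.047 in KP1 spheroid and -0.041 in RPC captures. It was followed by Uchl1 at 0.239 and Calca at 0.217. Chgb (0.098), Pomc (0.084), Scg2 (0.068) and Resp18 (0.035) lay below the median of all genes.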

How the data were processed

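The authors deposited expected counts per gene for 199 libraries; RSEM, Bowtie2 and the builds GRCm38 and GRCh38.p12 are named in the submitters' processing notes, without their roles. Per the labels' protocols, about 10 cells were cut by laser from 8 µm cryosections, and cDNA made from poly(A) RNA went through poly(A) PCR before tagmentation; bulk libraries used another kit, so their levels are not compared with captures. Expected counts were rounded for the edgeR tests, CPM was taken from them unrounded, and 92 ERCC rows were left out of library sizes and tests. Group comparisons used edgeR 4.0.16 quasi-likelihood tests (TMM scaling, filterByExpr, R 4.3.3) with Benjamini-Hochberg adjustment over all tested genes, called at 0.05. Spread and covariation used limma 3.58.1 on log2(CPM + 1) for genes whose mean reached 5 CPM. DESeq2 1.42.0, limma-voom, RLE scaling, other filters, covariates, a replicate block, subsets by ERCC share or Rpl19-ps11 and thinning to 718149 counts were alternatives. Libraries with at most 5% ERCC counts were chosen after seeing the data. Tests were checked on simulated counts. There edgeR called 19.4% to 38.8% of genes set to change 2-fold, over the 7 comparisons. It called 75.8% to 96.5% of those set to change 4-fold, so smaller changes can go uncalled. Exon lengths for TPM came from GENCODE, and promoters from RefSeq, with python 3.11.15. The members and gene lists were chosen with earlier results of these data known. Named genes are all members, at most the 4 called genes of each pathway list with the smallest adjusted p per comparison, and the 5 genes most like Chga. Cpe is named outside that rule, after its values were seen. Some genes that this rule names are not reported here.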

Additional observations from a re-analysis of the deposited data

How the results depend on the processing

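Of 28 called member values, 10 kept their call under every alternative run, 18 lost it under at least 1, and 1 of these changed sign. Of 114 values not called, 16 were called and 36 changed sign under at least 1 alternative; sign changes are listed only for values called in some fit, a choice made after they had been counted. The causes were not tested.

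In calls over all genes, no filter gave 8431 (nude against spheroid), 5072 (F1 against spheroid), 6294 (F1 against nude), 6115 (RPC), 7888 (nude pools), 5224 (F1 pools) and 5857 (F1 against nude pools). DESeq2 gave 1417, 1470 and 1089 for F1 captures, F1 pools and F1 against nude pools. limma-voom gave 1743 (F1), 3081 (RPC), 4778 (nude pools) and 3339 (F1 pools). The hepatocyte score gave 1003 (nude), 902 (nude pools), 1343 (F1 pools) and 294 (F1 against nude pools), and detected genes 920 in nude pools. A mean of at least 10 CPM gave 1209 for F1 against nude pools. Spheroids with at least 0.1% ERCC gave 174 (F1), 776 (nude pools) and 22 (F1 pools). Low Rpl19-ps11 gave 379 (F1), 223 (F1 against nude), 1890 (F1 pools) and 295 (F1 against nude pools).

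Members called in nude captures numbered 0 with the hepatocyte score. In F1 captures 1 was called with high-ERCC spheroids and 1 with low Rpl19-ps11. In nude pools there were 6 with RLE (2163 of 8010 genes called), 6 with no filter, 7 with DESeq2 (2873 of 8010) and 9 with limma-voom (4778 of 8010), 1 with detected genes and 1 with low-ERCC spheroids (1855 of 8482). In F1 pools there were 5 with limma-voom, 0 with detected genes and 0 with high-ERCC spheroids, and 0 for F1 against nude pools with low Rpl19-ps11.

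Scg3 changed sign in nude captures with RLE (0.18), between hosts with low Rpl19-ps11 (-0.19) and at most 5% ERCC (-0.083), and in nude pools with at least 10 CPM (0.0094), high-ERCC spheroids (0.16) and at most 5% ERCC (0.072). In F1 pools Scg3 was -0.16 with RLE, -0.16 with DESeq2, -2.15 with limma-voom, -0.79 with the hepatocyte score, -0.064 with low-ERCC spheroids and -0.47 with low Rpl19-ps11. Pomc was -0.77 between hosts with low Rpl19-ps11, and 0.68 with detected genes and 0.28 with at most 5% ERCC in nude pools. Scg5 was 0.20 in nude pools with the hepatocyte score, and 1.17 with detected genes and 0.32 with low Rpl19-ps11 in F1 pools. Resp18 was 1.23 in F1 pools with detected genes.

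Replicate numbers did not pair the samples: over 7 comparisons the correlation of same-numbered libraries ran from -0.179 to 0.325, with at most 1 pair above 0.1 in each. Few libraries correlated best with their own number, 0 to 3 in each comparison. The replicate block gave 887 calls between hosts, 1837 in F1 pools and 179 for F1 against nude pools, called 6 members and 2927 of 7278 genes in nude pools, and gave Scg3 -1.36 in F1 pools.

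Spread calls with deviation from the group mean were 25 (spheroid), 385 (nude) and 1094 (F1, 3 members). Of these F1 members Pomc spread more in captures, and Chgb and Scg3 spread less. With the deviation from the group mean, 354 F1 genes spread more and 740 less. With log2(CPM + 10) the spread calls were 5 (nude, 0 members) and 46 (F1). With at least 20 CPM they were 8 in nude liver, with 0 members called there and 0 in F1. Thinning left 0 members in nude liver. Covariation calls in spheroids were 77 with log2(CPM + 10), 256 with at least 20 CPM, 15 with detected genes and 0 on ranks; in nude liver they were 1 and 11 under the first 2, and the difference from pools gave 5 with at least 20 CPM. In RPC each of these 4 gave 0. Depth limits detection of low members: thinning took Scg2 from 7 to 4 spheroid captures with counts, Scg5 from 28 to 23 F1 captures and Calca from 18 to 11 nude pools.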
